A study of Mus musculus with 20 samples.

Results

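The overload response of plantaris muscle that had received a miR-1 mimic was examined by comparing 5 MOV mimic libraries with 5 sham mimic libraries. These 10 libraries were taken from the 20 of the series by their labels, so that no library was picked by its values. The mice were male C57BL/6J animals aged 5 months. MOV is mechanical overload by synergist ablation on both sides, in which the plantaris takes over work of the removed muscles, and sham animals were operated on without it. All 10 muscles were right plantaris muscles that were injected at surgery with lentivirus expressing the mimic and a TurboGFP reporter under the mouse CMV promoter, and all were collected 10 days later. The left plantaris of the mice had received a scramble control lentivirus, which gave the 5 sham control and 5 MOV control libraries. Sham and MOV were done on different mice. The virus reached only a part of the fibres, other cells of the muscle were sequenced with them, and the counts hold no measurement of mature miR-1 itself. Labels do not state whether equal replicate numbers mark the same mouse, so that p-values describe the spread between these libraries.

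miR-1 is the most abundant microRNA of striated muscle and represses messenger RNAs that carry a match to its seed. In overloaded muscle its level is known to fall while fibres grow, and a mimic is meant to supply additional copies. Overload of a muscle is known to bring re-expression of developmental contractile proteins, activation of satellite cells, deposition of matrix and entry of immune cells, together with growth of the fibres. The comparison asked which of these parts of the response were measurable when mimic virus had been injected into both the loaded and the unloaded muscle. A rise of miR-1 in either group was not measured in these libraries.

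The counts came from muscle. Acta1, the skeletal α-actin, had a mean of 15.03 log2 CPM over the 10 libraries, Ttn (titin) 13.57, Ckm (muscle creatine kinase) 13.31, Des (desmin) 12.47 and Mb (myoglobin) 11.42. Their log2FC, here always MOV mimic relative to sham mimic, were -0.37 for Acta1, -0.45 for Ttn, -0.55 for Ckm, 0.27 for Des and -0.34 for Mb, and none passed edgeR or DESeq2. CPM are counts per 1000000 reads on genes, with library sizes scaled by TMM, and they describe RNA of the whole muscle. Fewer cells of a type and less RNA per cell cannot be told apart in such libraries.

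Several libraries stood apart before any gene was tested. Total counts were between 12036360 and 17877583 in MOV mimic and between 16377561 and 23056525 in sham mimic. MOV mimic 1, 2, 3 and 5 had a higher mean correlation of log2 CPM with the sham mimic libraries (0.926 to 0.948) than with the other MOV mimic libraries (0.905 to 0.924). The gap was widest for MOV mimic 5, with 0.948 and 0.905. These means with the own group hold MOV mimic 4, which correlated at only 0.847 to 0.886 with the other MOV libraries. MOV mimic 1 and 2 correlated at 0.946 with each other and at 0.882 to 0.945 with the sham mimic libraries. MOV mimic 5 correlated at 0.920 to 0.931 with MOV mimic 1 to 3 and at 0.937 to 0.959 with the sham mimic libraries. In MOV mimic 4, 15561 genes had at least 1 count, the fewest of the 10, and its correlation was 0.874 with its own group and 0.857 with sham mimic. MOV mimic 5 was kept under its label, and the counts cannot tell whether its muscle was loaded as the other 4 were, so that each MOV mean below rests on that label. Features named here rRNA-like were the mitochondrial rRNA genes mt-Rnr1 and mt-Rnr2 and 3 features whose counts moved with them, namely Lars2, a microRNA precursor and a feature without a symbol. They took 1.49 to 1.78% of the counts in sham mimic 1 to 4 and 0.0255 to 0.038% in MOV mimic 1 to 4. Their share was 0.0381% in sham mimic 5 and 0.234% in MOV mimic 5. In the control legs it was 1.67 to 2.58% in sham, 0.0322 to 0.0446% in MOV control 1 to 4 and 1.06% in MOV control 5. This share separated the surgeries almost completely, and its part in the results was not tested beyond the fits given below. Differences between surgeries and between libraries with high and low shares cannot be told apart for most of these libraries.

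**Figure D1:**
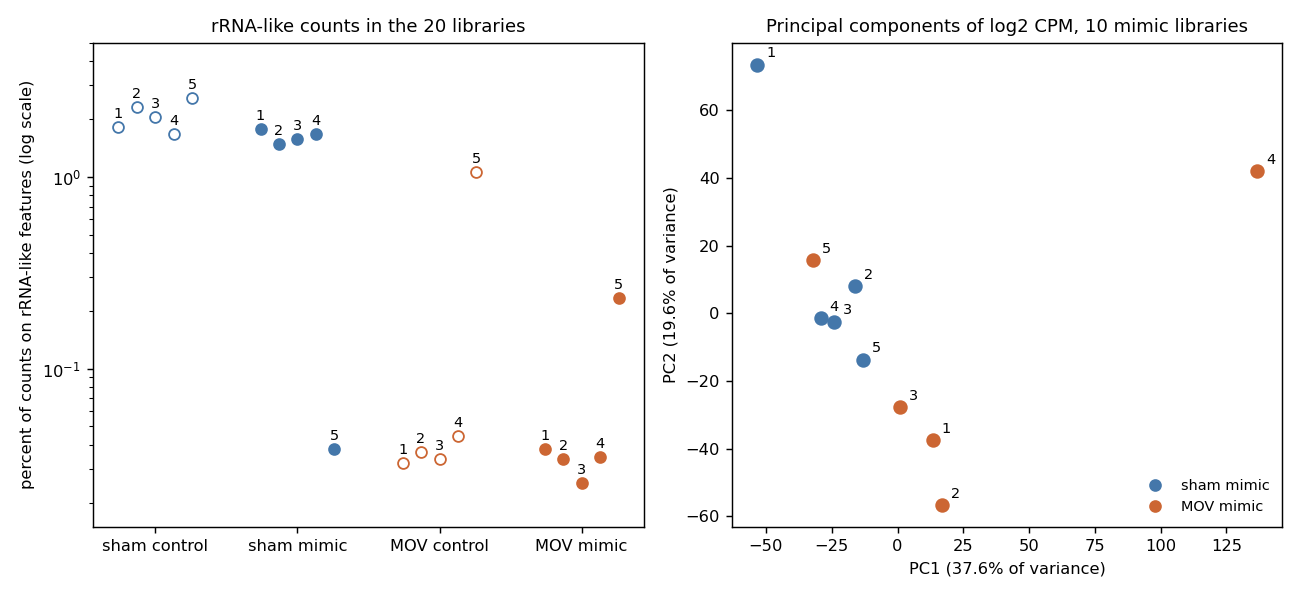
Share of counts on rRNA-like features in each of the 20 libraries (percent, log axis) and the first 2 principal components of log2 CPM of the 10 mimic libraries (37.6% and 19.6% of the variance). Sham mimic 5 sits at 0.0381%, with the MOV libraries, MOV mimic 5 at 0.234%, and MOV mimic 4 is far from the other libraries on the first component.

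No gene passed the main test. Of 14918 genes tested with edgeR's quasi-likelihood test, 0 (0%) had an adjusted p under 0.05 and the smallest adjusted p was 0.141, shared by Pm20d2, Slc7a6os, Igfn1 and Tek. An unadjusted p under 0.05 was found for 1997 genes (13.4%), 1090 higher (7.31%) and 907 lower (6.08%) in MOV mimic. DESeq2, the tool of the study, called 223 DEGs (1.49%) on the same genes, 126 higher (0.845%) and 97 lower (0.65%). A DESeq2 call with a log2FC beyond 1 in size was made for 129 genes (0.865%). All 5 libraries of one group lay above all 5 of the other for 170 genes higher (1.14%) and 235 genes lower (1.58%). Of the DESeq2 calls, 52 of those higher and 71 of those lower were of this kind. The log2FC was above 0 for 51.8% of all genes and its median was 0.02. With library totals in place of TMM the median of all genes was 0.22. The TMM factors ran from 0.789 to 0.988 in sham mimic and from 0.947 to 1.22 in MOV mimic.

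The number of DEGs depended on single libraries, most of all on MOV mimic 5. Without it, chosen here after its values were seen, edgeR called 101 of 15332 genes (0.659%), 50 higher (0.326%) and 51 lower (0.333%). DESeq2 then called 1341 (8.75%), 631 higher (4.12%) and 710 lower (4.63%), and these held 220 of the 223 calls on 10 libraries, 98.7% of the shorter and 16.4% of the longer list. DESeq2 called 66 genes without sham mimic 1, 70 without sham mimic 4, 56 without MOV mimic 1, 54 without MOV mimic 2 and 110 without MOV mimic 4. It called 202 without sham mimic 2, 191 without sham mimic 3, 271 without sham mimic 5 and 275 without MOV mimic 3. With the log2 share of rRNA-like reads as a covariate, edgeR called 0 genes and 277 had an unadjusted p under 0.05. Among the 5 libraries with a share under 0.1%, sham mimic 5 against MOV mimic 1 to 4, edgeR also called 0 genes and 494 had an unadjusted p under 0.05. In this last fit the lone sham library was assumed to vary like the MOV libraries. Below, "higher" and "lower" with a count refer to DESeq2 calls on all 10 libraries unless another fit is named. Each count of a list is to be read against the shares of all genes just given. In simulated counts for this comparison DESeq2 made 25 false calls and edgeR 2, so that DESeq2 was the less strict tool.

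**Figure D2:**
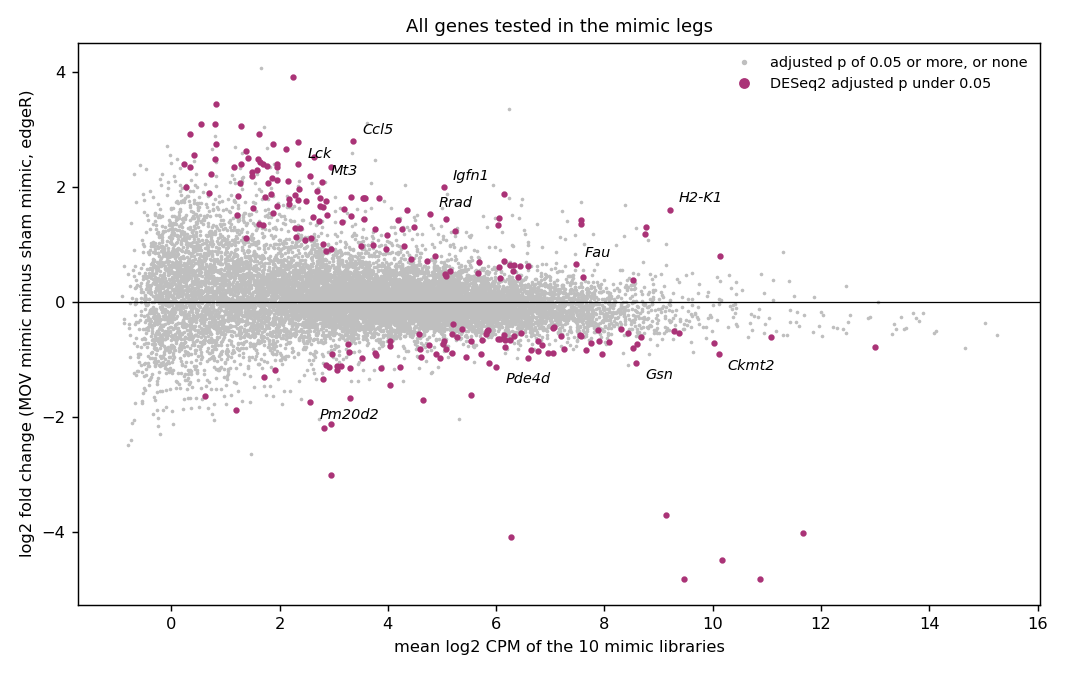
Mean log2 CPM over the 10 mimic libraries (x) against the log2FC of MOV mimic relative to sham mimic from edgeR (y), 1 point per gene tested. The 126 genes DESeq2 called higher and the 97 it called lower are coloured, and no gene passed edgeR.

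**Figure D3:**
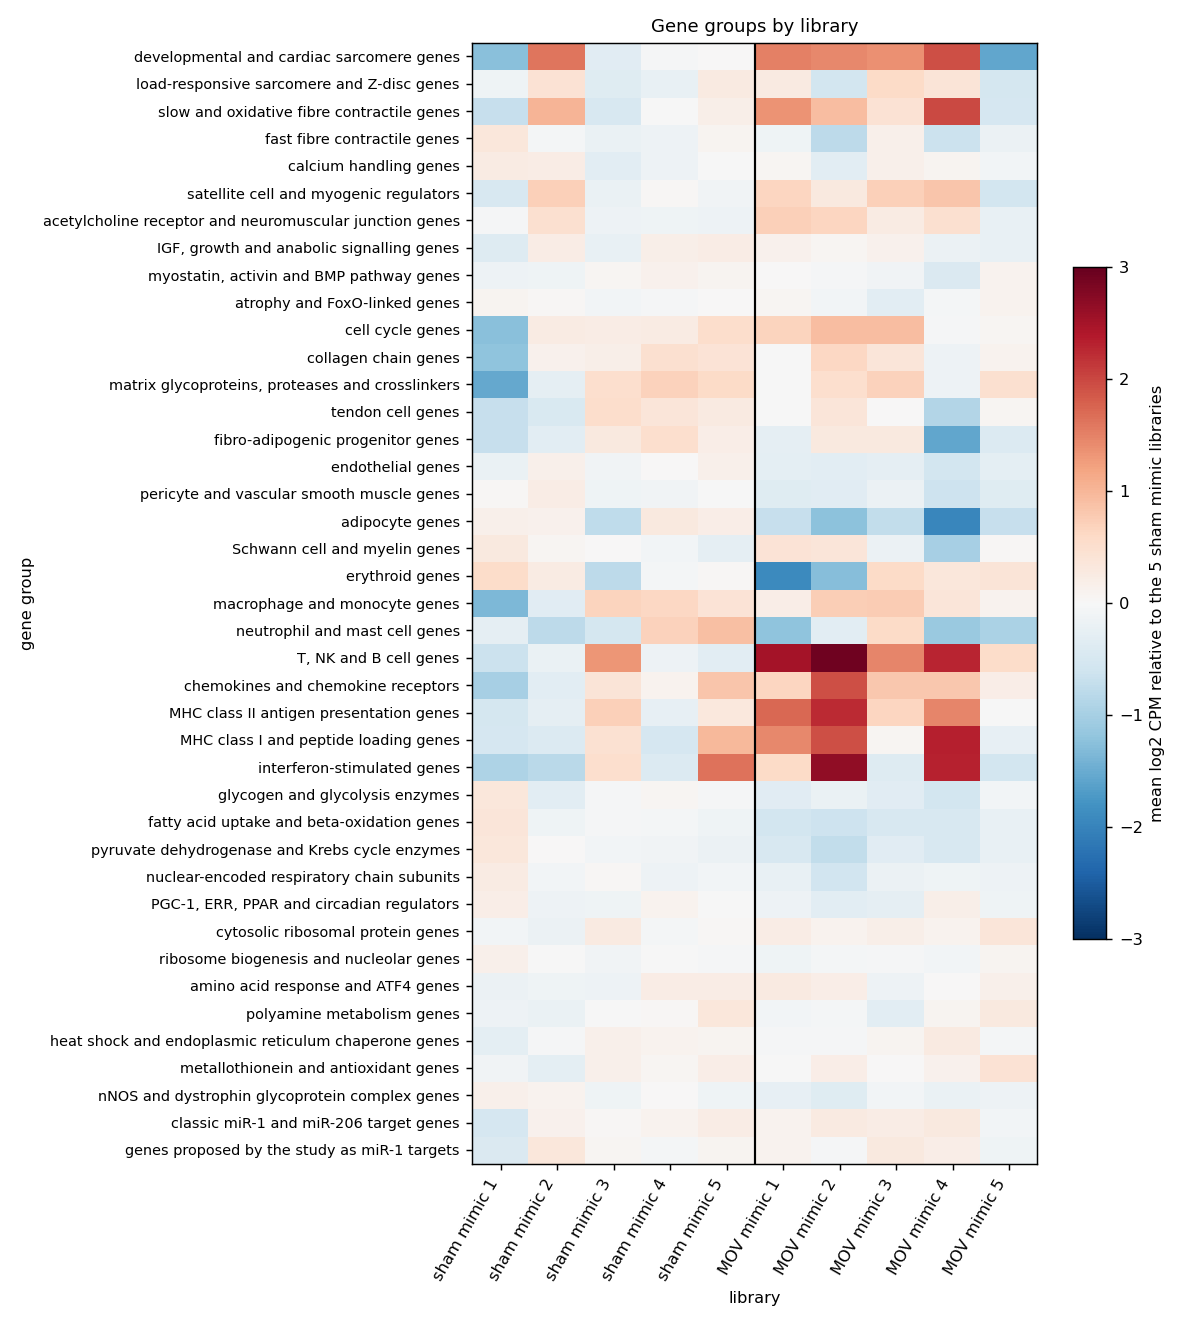
Mean log2 CPM of the tested genes of each list in each mimic library, relative to the mean of the sham mimic libraries. MOV mimic 5 lies inside the range of the sham libraries for class II genes (-0.01) and class I genes (-0.25) and below it for developmental sarcomere genes (-1.57), while for Krebs cycle genes all MOV libraries are between -0.74 and -0.23.

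Of all lists, T, NK and B cell genes held the most DESeq2 calls. Of 20 tested T, NK and B cell genes (26 listed), 19 had a log2FC above 0, the median was 2.36, 10 were higher and 0 lower. Lck, the kinase that starts signalling at the T cell receptor, was at 1.13, 0.925, 2.83, 0.484 and 0.893 CPM in sham mimic 1 to 5. It was at 13.1, 12.1, 3.88, 11.3 and 2.88 CPM in MOV mimic 1 to 5. All 5 MOV libraries lay above all sham libraries, with MOV mimic 3 and 5 close to sham mimic 3. Its log2FC was 2.78 (SE 0.55), with an adjusted p of 0.000285 in DESeq2 and 0.213 in edgeR. These values rested on 11 to 57 counts per sham library and 44 to 255 per MOV library. Lck (ENSMUSG00000000409) lies on chromosome 4 from 129548344 to 129573641 (GRCm38.p6, RefSeq).

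Other called genes of the T cell receptor complex and of cytotoxic cells were of similar size. Cd3g, a chain of the receptor complex, had means of 0.683 ± 0.413 CPM in sham mimic and 4.26 ± 2.14 CPM in MOV mimic (SD, n = 5), without overlap and with a log2FC of 2.62. The coreceptor chains Cd8a and Cd8b1 had log2FC of 2.48 and 2.49, and the receptor constant regions Trac and Trbc2 of 2.49 and 2.35. Gzmb, the protease granzyme B of cytotoxic granules, had a log2FC of 2.36 and did not overlap between groups. Il2rb, a chain of the interleukin-2 receptor, Nkg7, a granule protein, and Klrk1, the activating receptor NKG2D, had log2FC of 2.52, 2.40 and 2.40, with overlap. Cd4, the coreceptor of helper T cells, had a log2FC of 1.72 and Cd3e, another chain of the complex, of 0.94, and neither was called. Summed over the list, sham mimic libraries had 45.7 to 109 CPM and MOV mimic libraries 77.2 to 227 CPM, so that the sums of the groups overlapped. DESeq2 called 15 of the list without MOV mimic 5 and only 2 without MOV mimic 2, while edgeR called 3 without MOV mimic 5. The median was 2.22 with the covariate and 3.32 among libraries with a low share. In the control legs it was 1.03 with 0 called higher and 1 lower, and 1 gene of the list had an unadjusted p under 0.05 for the interaction.

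MHC class II genes, which present peptides to helper T cells, had a median log2FC of 1.42 over 9 tested genes, with all 9 above 0, 5 higher and 0 lower. H2-Ab1, the β chain of the I-A molecule, was at 55.0, 84.3, 158, 81.7 and 138 CPM in sham mimic 1 to 5. In MOV mimic 1 to 5 it was at 312, 462, 173, 338 and 103 CPM. MOV mimic 1 to 4 lay above every sham library and MOV mimic 5 among them. The log2FC was 1.42 (SE 0.38), with an adjusted p of 0.0143 in DESeq2, 0.268 in edgeR and 0.0476 in edgeR without MOV mimic 5. The last value comes from leaving out a library after its values were seen and is no separate test. H2-Ab1 (ENSMUSG00000073421) lies on chromosome 17 from 34263227 to 34269418.

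The other called class II genes carry peptide loading and control of the class. H2-DMb2, a chain of the peptide exchange factor, had means of 0.739 ± 0.191 and 3.91 ± 3.03 CPM (sham and MOV, SD, n = 5), a log2FC of 2.40 and no overlap. H2-DMa, its partner chain, had a log2FC of 1.6, Cd74, the invariant chain, of 1.30, and Ciita, the transactivator of the class, of 1.81. Summed levels were 369 to 993 CPM in sham mimic and 552 to 2391 CPM in MOV mimic. Macrophages, dendritic cells and B cells carry these genes, and the median of 29 tested macrophage and monocyte genes was 0.22, with summed levels of 473 to 2014 CPM in sham mimic and 1162 to 2084 CPM in MOV mimic. DESeq2 called 8 class II genes without MOV mimic 5 and 0 without MOV mimic 2. The median was 0.58 with the covariate and 1.22 among the libraries with a low share.

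MHC class I and peptide loading genes had somewhat smaller differences of one sign. All 19 tested genes had a log2FC above 0, with a median of 1.34, 5 higher and 0 lower. H2-K1, the classical heavy chain that presents peptides to cytotoxic T cells, was at 216, 274, 445, 179.7 and 345 CPM in sham mimic 1 to 5 and at 1071, 944, 440, 1682 and 309 CPM in MOV mimic 1 to 5. MOV mimic 3 and 5 lay inside the sham range and the other MOV libraries above it. The log2FC was 1.61 (SE 0.41), with an adjusted p of 0.00711 in DESeq2. H2-D1, H2-Q4, H2-Q6 and H2-T22, with log2FC of 1.18, 1.46, 1.88 and 1.34, were the other 4. The H2 heavy chains are close in sequence, so that reads may be split among them, and each is uncertain on its own. B2m, the light chain shared by all of them, had means of 372 ± 153 and 750 ± 285 CPM (SD, n = 5) and a log2FC of 1.01. Its adjusted p in DESeq2 was 0.0508, just outside the threshold. Tap1, a peptide transporter, and Psmb8, a subunit of the immunoproteasome, had log2FC of 1.49 and 1.33 and were not called. The median of the list was 0.03 with the covariate and 0.61 among the libraries with a low share. DESeq2 called 9 of the list without MOV mimic 5, and 0 without sham mimic 1, without sham mimic 2, without MOV mimic 2 or without MOV mimic 4.

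Interferon-stimulated genes varied widely between the libraries of each group. All 32 tested genes had a log2FC above 0 and the median was 1.14, but none was called. The median was -0.30 with the covariate and 0.23 among the libraries with a low share, and DESeq2 called 3 without sham mimic 5 and 2 without MOV mimic 5. Gbp2, a guanylate-binding protein, was at 17.4, 14.9, 30.9, 18.4 and 86.1 CPM in sham mimic 1 to 5 and at 49.5, 237, 12.7, 271 and 18.3 CPM in MOV mimic 1 to 5. Igtp, an immunity-related GTPase, was at 23.2, 25.3, 66.0, 19.4 and 892 CPM in sham mimic and at 169, 798, 29.9, 1212 and 62.5 CPM in MOV mimic. Sham mimic 5, MOV mimic 2 and MOV mimic 4 were high for both, and MOV mimic 3 was low for both. The log2FC were 1.81 (SE 0.81) for Gbp2 and 1.15 (SE 1.19) for Igtp, both within the spread. Zbp1, a sensor of nucleic acids, had a log2FC of 2.03, and Isg15, a ubiquitin-like protein, of 0.85. Summed over the list the levels were 302 to 4380 CPM in sham mimic and 384 to 6182 CPM in MOV mimic.

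Promoter windows of genes of these lists are shown because all tested genes of the 3 lists had a log2FC above 0. The capitals mark the bases CCAAT, read as ATTGG on the other strand, in the first 3 windows. In the last 2 they mark GAAA followed after any 2 bases by another GAAA, which reads as TTTC on the other strand. CCAAT is the Y box of class II promoters and the GAAA pair a core of the interferon response element. All windows are RefSeq sequence of build GRCm38.p6, written 5′ to 3′ on the strand of the gene.
H2-DMb2, chr17:34145147-34145176, + strand: agtcacttagtgATTGGactgacttaacta
H2-Aa, chr17:34287854-34287883, − strand: gagaattttctgATTGGttctggcgagttt
H2-Eb1, chr17:34305796-34305825, + strand: cctttgatgctgATTGGctcccagcactgg
Gbp2, chr3:142620594-142620623, + strand: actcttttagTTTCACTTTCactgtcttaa
Igtp, chr11:58199512-58199541, + strand: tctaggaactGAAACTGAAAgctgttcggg
In the 250 bases before the start, on both strands, CCAAT was found in 8 of 8 class II genes with a promoter sequence (100%), in 11 of 15 class I genes (73.3%) and in 37.5% of 27025 genes of the genome. The GAAA pair was found in 15 of 23 interferon-stimulated genes (65.2%), in 3 of 15 class I genes (20%) and in 3.46% of the 27025 genes. Of the called class II genes, H2-DMa and H2-DMb2 were among the 8 with a promoter sequence, and H2-Ab1, Cd74 and Ciita were not. The 8 were not limited to tested genes. A match describes letters of the promoter and is no measurement of binding.

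Among 25 tested chemokines and chemokine receptors, 22 had a log2FC above 0 and 3 were higher. Their median was 0.97, but 0.063 with the covariate and 0.35 among the libraries with a low share. Ccl5, which attracts T cells, had means of 2.53 and 17.7 CPM and a log2FC of 2.79. Cxcr6, a receptor of T and NK cells, was at 0.755 to 1.39 CPM in sham mimic and 1.59 to 5.60 CPM in MOV mimic, without overlap, and had a log2FC of 1.85. Ccr2, the receptor of inflammatory monocytes, had a log2FC of 1.23 with 4 of 5 MOV libraries above every sham library. The interferon-γ-induced chemokines Cxcl9 and Cxcl10 had larger log2FC, 3.35 (SE 1.11) and 2.46 (SE 0.80), but were not called. DESeq2 called 0 genes of the list higher without sham mimic 1, without sham mimic 4, without MOV mimic 1 or without MOV mimic 2, and 7 without MOV mimic 5.

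Few macrophage and monocyte genes passed the test. Ccr2 was the 1 gene higher of 29, and 7 of the 29 were higher at an unadjusted p under 0.05 in edgeR, beside 7.31% of all genes. DESeq2 called 4 without MOV mimic 5 and 0 without each of sham mimic 1, 2 and 4 and MOV mimic 1, 2 and 4. The median of 0.22 became -0.02 with the covariate. Cd68, a lysosomal protein of macrophages, had means of 17.6 ± 8.62 and 18.2 ± 3.39 CPM (SD, n = 5). Adgre1 (F4/80) had a log2FC of 0.22, Mrc1 (the mannose receptor CD206) of 0.12 and Cd163 (a scavenger receptor) of -0.57. None of 8 tested neutrophil and mast cell genes was called, and their median was -0.52. It ran from -1.03 to -0.17 when 1 library was left out and was -0.97 with the covariate.

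Developmental and cardiac sarcomere genes, re-expressed by regenerating fibres, varied too widely between libraries for a call. Of 8 tested genes 7 had a log2FC above 0, the median was 1.04 (0.61 with the covariate) and 0 were called. Myh3, the embryonic myosin heavy chain, was at 10.4, 1033, 25.8, 119 and 143 CPM in sham mimic 1 to 5 and at 458, 233, 277, 571 and 4.59 CPM in MOV mimic 1 to 5. Sham mimic 2 was the highest of the 10 libraries and MOV mimic 5 the lowest. The log2FC was 0.21 (SE 1.10). Without sham mimic 2 it was 2.05, and it was negative, at -0.15 to -0.09, without sham mimic 1, sham mimic 3 or MOV mimic 4. Sham mimic 2 was also the highest sham library for Myh8, the perinatal myosin, at 464, for Actc1, the cardiac α-actin, at 1051, and for Myl4, the embryonic light chain, at 140 CPM. Their log2FC were 0.83, 0.70 and 1.26. Tnnt2, the cardiac troponin T, and Mybph, a myosin-binding protein, had log2FC of 1.69 and 1.30 and were called by DESeq2 without MOV mimic 5.

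Of 12 tested slow and oxidative fibre genes 10 had a log2FC above 0, 2 were higher and 0 lower. Their median was 1.32, and 0.62 with the covariate. Summed levels overlapped, at 6341 to 14968 CPM in sham mimic and 2723 to 14160 CPM in MOV mimic. Myh7, the slow myosin, was at 22.8, 191, 19.9, 115 and 88.2 CPM in sham mimic 1 to 5 and at 364, 401, 94.1, 517 and 85.9 CPM in MOV mimic 1 to 5. MOV mimic 1, 2 and 4 were above all sham libraries, MOV mimic 3 and 5 were inside their range, and the log2FC was 1.74 (SE 0.65), not called. Tpm3, the slow tropomyosin, and Myh7b, the myosin gene that hosts a microRNA, were called, with log2FC of 1.35 and 1.5 and adjusted p of 0.0106 and 0.0388 in DESeq2. Both had 3 of 5 MOV libraries above the sham range, and neither was called without MOV mimic 1, MOV mimic 2 or MOV mimic 4. Atp2a2, the calcium pump of slow fibres, had a log2FC of 1.29 and Sln, its inhibitor sarcolipin, of 1.68, both uncalled.

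Fast fibre genes were not called, and neither were load-responsive Z-disc genes. The median of 13 tested fast fibre genes was -0.26. It ran from -0.42 to -0.13 when 1 library was left out and was -0.07 with library totals in place of TMM. Myh4, the fastest myosin, was at 18546 to 52510 CPM in sham mimic and 6047 to 37550 CPM in MOV mimic, with 3 of 5 MOV libraries below the sham range and a log2FC of -0.80 (SE 0.42). MOV mimic 5 was the highest MOV library, and without it DESeq2 called 4 fast fibre genes and 1 load-responsive gene lower. Pvalb, the calcium buffer of fast fibres, had means of 8496 and 8513 CPM and a log2FC of 0.00. Ankrd1, a stretch-responsive titin partner, and Csrp3, the Z-disc protein MLP, had log2FC of 0.66 and 0.48 with overlap. Over 15 load-responsive genes the median was 0.11, and its sign changed in 7 of 30 alternatives.

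Among satellite cell and myogenic genes, Igfn1 was the 1 called. This gene encodes an immunoglobulin-domain protein of the Z-disc region of muscle. It was at 5.43, 17.2, 15.7, 13.5 and 12.9 CPM in sham mimic 1 to 5 and at 54.1, 62.0, 36.1, 79.0 and 29.3 CPM in MOV mimic 1 to 5. All MOV libraries, MOV mimic 5 included, lay above all sham libraries. The log2FC was 2.00 (SE 0.32), with an adjusted p of 3.21e-06 in DESeq2 and 0.141 in edgeR, and its values without 1 library lay between 1.80 and 2.15. Igfn1 (ENSMUSG00000051985) lies on chromosome 1 from 135953205 to 136040925. The median of the 20 tested genes of the list was 0.25, with 16 above 0, 1 higher and 0 lower, and DESeq2 called 4 higher without MOV mimic 5. Myog, the transcription factor of differentiation, had means of 11.9 ± 8.32 and 34.4 ± 20.2 CPM (SD, n = 5) and a log2FC of 1.52, with 4 of 5 MOV libraries above the sham range. Pax7, the factor of satellite cells, had a log2FC of 0.43 and Myod1, the factor of myoblasts, of 0.52. The fusion genes Mymk and Mymx had log2FC of 1.62 and 1.73, and none of these 5 was called on all 10 libraries.

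Rrad, a small GTPase that binds calcium channels and is induced in injured muscle, was among the 6 highest DEGs that did not overlap and had a mean of at least 4 log2 CPM. It was at 8.88 to 21.1 CPM in sham mimic and 24.8 to 61.7 CPM in MOV mimic, with a log2FC of 1.52 (SE 0.31) and an adjusted p of 0.00116 in DESeq2. Sh3bgrl3, a thioredoxin-like protein, and Tmem208, a membrane protein of the endoplasmic reticulum, had log2FC of 0.80 and 0.75 and did not overlap. Of 12 acetylcholine receptor and junction genes 0 were called, with a median of 0.37, and Chrna1, the α subunit of the receptor, had a log2FC of 0.95 and Chrng, the fetal subunit, of 1.83. DESeq2 called both without MOV mimic 5, and 3 of the list in all.

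**Figure D4:**
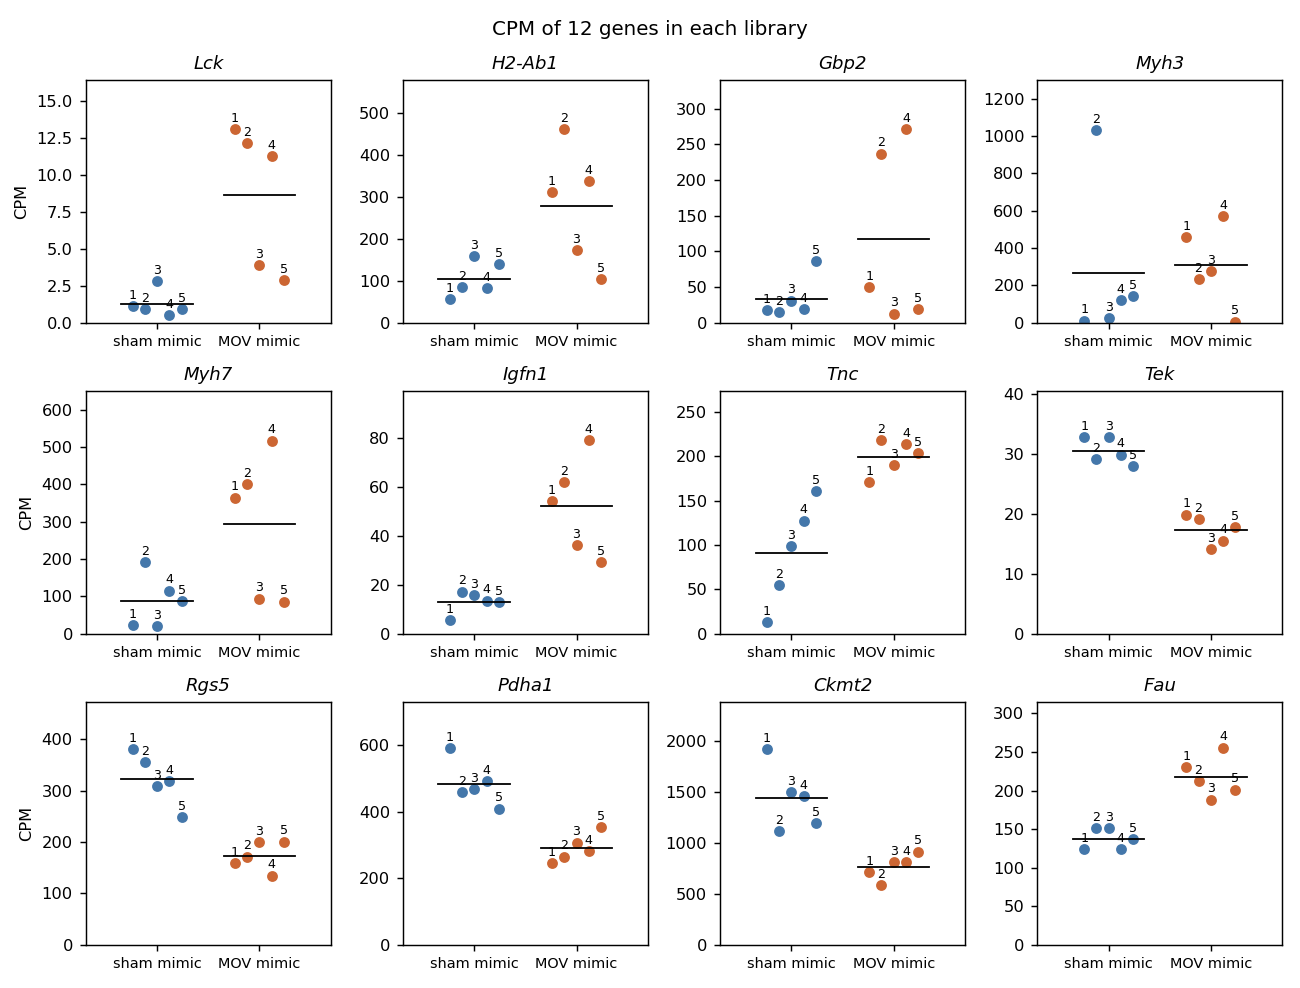
CPM of 12 genes in each library of sham mimic and MOV mimic, with a line at the mean of each group. Lck, Igfn1, Tek, Rgs5, Pdha1, Ckmt2, Fau and Tnc did not overlap between groups, and H2-Ab1, Gbp2, Myh3 and Myh7 did.

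Some genes of blood vessels were lower in MOV mimic. Of 23 tested endothelial genes 20 had a log2FC below 0, 5 were lower and 0 higher, and 4 of the 5 did not overlap. Tek, the receptor TIE2 of angiopoietins, was at 32.8, 29.2, 32.9, 29.9 and 28 CPM in sham mimic 1 to 5 and at 19.9, 19.2, 14.1, 15.5 and 17.8 CPM in MOV mimic 1 to 5. All MOV libraries lay below all sham libraries and the spread inside each group was narrow. The log2FC was -0.82 (SE 0.13), with an adjusted p of 7.25e-05 in DESeq2 and 0.141 in edgeR. Without MOV mimic 5, left out after its values were seen, edgeR gave 0.0419, which is no separate test. Tek (ENSMUSG00000006386) lies on chromosome 4 from 94739086 to 94874976. Cdh5, the cadherin of endothelial junctions, and the VEGF receptors Kdr and Flt1 had log2FC of -0.66, -0.68 and -0.60. Cd36, a fatty acid transporter of capillaries and fibres, had a log2FC of -0.84 and overlapped through MOV mimic 5. Pecam1, a general endothelial marker, had a log2FC of -0.36 and was not called. Summed over the list, sham mimic libraries had 1624 to 1904 CPM and MOV mimic libraries 1142 to 1429 CPM, without overlap. Of the list, DESeq2 called 6 without MOV mimic 5 but 1 without sham mimic 1 or without MOV mimic 2. Its median was -0.33, and -0.12 with library totals in place of TMM.

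Of 14 tested pericyte and vascular smooth muscle genes 9 had a log2FC below 0, 2 were lower and 0 higher. Rgs5, a regulator of G protein signalling in pericytes, was at 382, 356, 310, 318 and 249 CPM in sham mimic 1 to 5 and at 159, 172, 201, 135 and 201 CPM in MOV mimic 1 to 5. The groups did not overlap and the log2FC was -0.90 (SE 0.16), with an adjusted p of 7.25e-05 in DESeq2. Lmod1, a leiomodin of smooth muscle, had a log2FC of -1.11. The median of the list was -0.35, and -0.16 with library totals in place of TMM. Its summed levels had a median of 6101 CPM (4458 to 7297) in sham mimic and 7079 CPM (5244 to 8295) in MOV mimic, but most of the sum was Des, which muscle fibres express too, at means of 5124 and 6186 CPM. DESeq2 called 6 lower without MOV mimic 5 and 1 without each of sham mimic 1, sham mimic 4, MOV mimic 1 and MOV mimic 4. Slc9a3r2, a scaffold protein, and Cavin2, a protein of caveolae, had log2FC of -0.91 and -0.90 and were among the 6 lowest DEGs that did not overlap and had a mean of at least 4 log2 CPM.

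All 11 tested adipocyte genes had a log2FC below 0, with a median of -0.97, and 1 was lower. Plin4, a protein of lipid droplets, was the 1 called, with means of 128 ± 51.1 and 65.4 ± 21.9 CPM (SD, n = 5). Adipoq, the adipocyte hormone adiponectin, had a log2FC of -0.98 at means of 3.70 and 1.87 CPM and was not called. Summed levels overlapped, at 4220 to 7005 CPM in sham mimic and 2169 to 6143 CPM in MOV mimic, and most of the sum was Car3, a carbonic anhydrase that muscle fibres express too, at means of 4358 and 3841 CPM. DESeq2 called 3 of the list without MOV mimic 5 and 0 without each of sham mimic 1, 4 and 5 and MOV mimic 1, 2 and 4. Among 18 fibro-adipogenic progenitor genes Gsn, the actin-severing gelsolin, was lower with a log2FC of -1.06, while Pdgfra, the defining receptor of these cells, had -0.33. Gsn was not called without each of sham mimic 1, 3 and 4 and MOV mimic 1, 2 and 4. Chad, a matrix protein of cartilage and tendon, was the 1 lower of 12 tendon cell genes. It was at 7.52 to 17.9 CPM in sham mimic and 0 to 4.71 CPM in MOV mimic, and Scx and Tnmd, the factor and a membrane protein of tendon cells, had log2FC of 0.56 and 0.35. When 1 library was left out, Chad was called only without sham mimic 2 or MOV mimic 4.

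All 28 tested pyruvate dehydrogenase and Krebs cycle genes had a log2FC below 0, with a median of -0.46, 7 lower and 0 higher. The median was -0.28 with the covariate and -0.25 with library totals. For 11 of the 28 the groups did not overlap. Pdha1, the catalytic α subunit of pyruvate dehydrogenase, was at 590, 458, 468, 491 and 409 CPM in sham mimic 1 to 5 and at 245, 265, 307, 281 and 353 CPM in MOV mimic 1 to 5. The log2FC was -0.74 (SE 0.15), with an adjusted p of 0.000439 in DESeq2. Pdha1 (ENSMUSG00000031299) lies on chromosome X from 160122219 to 160138430. Pdpr, which regulates the phosphatase of the same complex, had a log2FC of -0.96 and was another of the 6 lowest DEGs chosen as above. The succinyl-CoA ligase subunits Suclg1 and Suclg2 had log2FC of -0.72 and -0.56, the succinate dehydrogenase subunits Sdha and Sdhb of -0.54 and -0.61, and Mdh2, malate dehydrogenase, of -0.51. Cs, citrate synthase, and Idh3a, isocitrate dehydrogenase, had -0.40 and -0.65 and were not called. DESeq2 called 15 of the list without MOV mimic 5. It called 2 without each of sham mimic 1, sham mimic 3, sham mimic 4, MOV mimic 1, MOV mimic 2 and MOV mimic 4.

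Fatty acid uptake and β-oxidation genes had all 27 tested members below 0, with a median of -0.43 and 6 lower. The median was -0.20 with the covariate and -0.22 with library totals. Etfdh, which passes electrons of fatty acid oxidation to the respiratory chain, had means of 141 ± 27.2 and 78.3 ± 13.9 CPM (SD, n = 5), no overlap and a log2FC of -0.85. Acaa2, the thiolase, Eci1, an isomerase, Acadvl, the very long chain dehydrogenase, and Etfa, a subunit of the electron transfer flavoprotein, had log2FC of -0.88, -0.79, -0.67 and -0.59. Cd36 was the sixth gene. DESeq2 called 14 without MOV mimic 5 and 2 without MOV mimic 1.

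Respiratory chain subunits encoded in the nucleus had smaller differences, with a median of -0.24 over 74 tested genes, 66 of them below 0, and -0.04 with library totals in place of TMM. The 4 lower were Ndufa10 and Ndufs1 of complex I, Cox7b of complex IV and Atp5a1 of the ATP synthase, with log2FC of -0.49, -0.53, -0.59 and -0.60, all without overlap. DESeq2 called 10 lower and 1 higher without MOV mimic 5, and 0 lower without sham mimic 1, without MOV mimic 1 or without MOV mimic 2. Ckmt2, the mitochondrial creatine kinase of muscle, was at 1920, 1115, 1499, 1463 and 1197 CPM in sham mimic 1 to 5 and at 717, 586, 814, 812 and 915 CPM in MOV mimic 1 to 5. Its log2FC was -0.90 (SE 0.18), with an adjusted p of 0.000447 in DESeq2. Of 30 glycogen and glycolysis genes only Slc2a4, the insulin-responsive glucose transporter GLUT4, was lower, with a log2FC of -0.80, and the median was -0.32, or -0.089 with the covariate. DESeq2 called 12 of that list lower without MOV mimic 5, among them Pygm, Pfkm and Hk2, and 0 without sham mimic 4, without MOV mimic 1, without MOV mimic 2 or without MOV mimic 4. Perm1, a muscle regulator of oxidative genes, was lower with -0.68 but not without each of sham mimic 1, 3 and 4 and MOV mimic 1 to 4, and Ppargc1a, which encodes PGC-1α, had -0.51 and was not called. Ckmt2 was also one of these 6 lowest DEGs, and the remaining ones were Pde4d, a cAMP phosphodiesterase, at -1.13, and Retsat, a retinol saturase, at -0.95.

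Cytosolic ribosomal protein genes had small differences, most of them above 0. Of 78 tested genes 69 had a log2FC above 0, with a median of 0.22 against 0.02 of all genes, and 2 were higher, Rpl35a with 0.43 and Rps14 with 0.38. DESeq2 called 7 without sham mimic 3 and 0 without each of 6 other libraries. Fau, which encodes a fusion of a ubiquitin-like protein and ribosomal protein S30, was at 124, 152, 152, 124 and 137 CPM in sham mimic 1 to 5 and at 230, 212, 188, 256 and 201 CPM in MOV mimic 1 to 5. Its groups did not overlap and the log2FC was 0.66 (SE 0.13), with an adjusted p of 0.000439 in DESeq2. Fau was not in the list, and Rps12-ps3, annotated as a pseudogene, with 0.64, may share reads with its parent gene and is uncertain. In ribosome biogenesis 0 of 34 genes were called and the median was -0.05. Its sign changed with library totals in place of TMM, which moved the median of all genes from 0.02 to 0.22.

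Matrix and cell cycle genes, which often mark the overload response, were not called. Tnc, the matrix protein tenascin-C, was at 13.1, 54.8, 98.3, 127 and 161 CPM in sham mimic 1 to 5 and at 170, 218, 190, 213 and 203 CPM in MOV mimic 1 to 5. The groups did not overlap, but the sham libraries were widely spread, and the log2FC was 1.13 (SE 0.45) with an adjusted p of 0.268 in DESeq2. Col1a1 and Col3a1, the fibrillar collagens, had log2FC of 0.48 and 0.11 and Postn, periostin, of 0.46. Sham mimic 1 was the lowest library for all 3, at 280, 478 and 52.7 CPM. None of 32 collagen genes and none of 39 other matrix genes was called, with medians of 0.13 and 0.12 that changed sign among the libraries with a low share, to -0.096 and -0.25, and without sham mimic 1, to -0.054 and -0.076. Among 38 cell cycle genes 33 had a log2FC above 0, with a median of 0.51 and 0 called. That median was 0.054 with the covariate and 0.30 among the libraries with a low share. Mki67, the marker of cycling cells, had means of 11 ± 5.43 and 20 ± 6.69 CPM (SD, n = 5), and Aurkb and Ccnb2, of mitosis, had log2FC of 1.47 and 1.43. DESeq2 called 5 higher, these last genes among them, and 1 lower without MOV mimic 5.

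Growth and atrophy signalling gave no call in the mimic legs on all 10 libraries. When 1 library was left out, DESeq2 called at most 1 gene higher and 1 lower in each of these lists. The medians were 0.07 over 19 IGF and anabolic genes, -0.06 over 25 myostatin, activin and BMP genes and -0.12 over 19 atrophy genes. The signs of the last 2 changed with library totals in place of TMM, which moved the median of all genes from 0.02 to 0.22. Igf1, the growth factor, had means of 108 ± 54.3 and 131 ± 37.2 CPM (SD, n = 5). Mstn, the growth inhibitor myostatin, was at 30.6 to 110 CPM in sham mimic and 2.87 to 70.8 CPM in MOV mimic, with a log2FC of -1.04 (SE 0.56). The ubiquitin ligases Fbxo32 and Trim63 had log2FC of -0.30 and -0.18, and the latter was 0.04 with library totals. Txnip, an inhibitor of glucose uptake, had -0.89 with an adjusted p of 0.0751 in DESeq2. Myc, Odc1, of polyamine synthesis, and H19, an imprinted non-coding RNA, had log2FC of 0.30, -0.22 and 0.86, all uncalled.

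Of the remaining lists, Mt3, a metallothionein, was the 1 gene called among 19 metallothionein and antioxidant genes, with means of 2.56 and 10.9 CPM and a log2FC of 2.08. No gene was called among 17 calcium handling, 21 amino acid response, 12 polyamine, 25 chaperone, 17 nNOS and dystrophin complex, 11 Schwann cell and 3 erythroid genes, with medians between -0.16 and 0.21. Without MOV mimic 5 DESeq2 called 3 dystrophin complex genes and 1 calcium gene lower and 2 Schwann cell genes and 1 amino acid response gene higher, and without sham mimic 2 it called 1 calcium gene higher. Nos1, the muscle nitric oxide synthase, had a log2FC of -0.74 (SE 0.33) and was not called. Genes regarded as miR-1 and miR-206 targets had a median of 0.13 over 23 tested genes, with 0 called, and Hdac4, a classic target, had -0.04. Over the 7 genes that the study proposed as targets from these samples the median was -0.02 in the mimic legs and 0.59 in the control legs. That list is therefore no independent evidence of a direction. Nxn, Ypel2, Acsl3 and Sh3d19 had log2FC of -0.11, 0.06, -0.17 and -0.02 in the mimic legs against 0.56, 0.63, 0.59 and 0.71 in the control legs, with unadjusted interaction p of 0.00688, 0.00971, 0.0152 and 0.0463 in edgeR. Only these 4 of the 7 genes had an unadjusted interaction p under 0.05, and Itm2a, Itgb1bp2 and B2m did not. Since the 7 were chosen from these same samples, the 4 p-values are no independent test either. Itm2a and Itgb1bp2 had -0.28 and 0.09 in the mimic legs, and their values in the control legs are not reported here.

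Fold changes of some of the called genes named above changed when the share of rRNA-like reads was a covariate or was low in all libraries. Since this share separated the surgeries almost completely, the covariate fit cannot tell share from surgery. A dependence on the share itself was therefore not tested. With the covariate, genes that were higher in MOV mimic had log2FC of 0.64 for H2-Ab1, 0.72 for Ciita, 0.97 for H2-K1, 1.30 for Gzmb, 0.56 for Ccr2, 0.72 for Tpm3 and 1.03 for Mt3. Among genes lower in MOV mimic the values became -0.19 for Cd36, -0.37 for Kdr, -0.56 for Rgs5, -0.50 for Cavin2, -0.59 for Plin4 and -0.46 for Gsn, and for genes of metabolism -0.46 for Pdha1, -0.58 for Pdpr, -0.40 for Sdhb, -0.49 for Acaa2, -0.41 for Acadvl, -0.53 for Etfdh, -0.39 for Slc2a4 and -0.33 for Perm1. Pde4d and Retsat had -0.69 and -0.54. Each of these was smaller than the value without the covariate by a factor of over 1.5. Among the libraries with a low share the values moved as far for other genes, to -0.40 for Cdh5, 0.26 for Rpl35a, 4.22 for Ccl5 and 3.87 for Cd8b1, the last 2 of them upward. With the covariate, Lck, Igfn1, Rrad, Tek, Slc9a3r2, Ckmt2 and Fau moved less, at 2.66, 1.71, 1.81, -0.69, -0.86, -0.62 and 0.63. No gene was called by edgeR in either fit.

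Whether the response itself differed from that under control virus was tested with an interaction term between surgery and virus in a fit of the 20 libraries. edgeR called 0 of 16166 genes, with a smallest adjusted p of 0.1 and 426 unadjusted p under 0.05 (2.64%), and DESeq2 called 1 (0.00619%). These fits took the legs as independent, although both legs of a mouse were injected. With a block for equal replicate numbers edgeR called 0 and DESeq2 5. The 5 smallest p belonged to Snord91a, Mt2, Slc7a6os, Snhg16 and Zfp94. Slc7a6os, named for its place on the strand opposite Slc7a6, was at 8.85 to 12.4 CPM in sham mimic and 17.7 to 22.1 CPM in MOV mimic, without overlap. Its log2FC was 0.93 (SE 0.14) in the mimic legs and 0.12 in the control legs, with an unadjusted interaction p of 0.000768. Mt2, a metallothionein, had 0 counts in all sham mimic libraries, which allows up to 3 counts in each by counting error, and was at 0 to 1.40 CPM in MOV mimic. Snhg16, which hosts small nucleolar RNAs, and Zfp94, a zinc finger gene, had log2FC of 1.11 and 1.01 in the mimic legs and -0.62 and -0.71 in the control legs. Without a stated strand setting, reads of genes on opposite strands cannot be told apart.

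In the control legs edgeR called 1 of 14974 genes (0.00668%), with 2726 unadjusted p under 0.05 (18.2%), and DESeq2 913 (6.1%), 392 higher (2.62%) and 521 lower (3.48%). Of these, 83 were also DESeq2 calls in the mimic legs, 37.2% of the shorter and 9.09% of the longer list. Over 14574 genes the log2FC of the legs had a correlation of 0.578 across genes and the same sign for 72.9%, a description that rests on muscles of the same mice. Among lists with lower genes, the medians were -0.46 in mimic and -0.38 in control for the Krebs cycle, -0.43 and -0.48 for fatty acid genes, -0.33 and -0.38 for endothelial genes, -0.97 and -1.37 for adipocyte genes and -0.35 and -0.051 for pericyte and vascular smooth muscle genes. For the other lists with a lower gene they were -0.24 and -0.35 for respiratory chain subunits and -0.32 and -0.48 for glycolysis genes. Fibro-adipogenic progenitor genes had -0.22 and -0.37 and metabolic regulators -0.12 and -0.11. Tendon cell genes had opposite signs, 0.21 in mimic and -0.35 in control. The medians of developmental sarcomere genes were 1.04 and 1.19. Larger gaps were found for immune lists, with 2.36 and 1.03 for T, NK and B cell genes, 1.42 and 0.14 for class II, 1.34 and 0.41 for class I and 1.14 and 0.29 for interferon-stimulated genes. An unadjusted interaction p under 0.05 in edgeR was found for 7 of 9 class II genes, among them H2-Ab1 with 0.0249. It was found for 1 of 19 class I genes and 0 of 32 interferon-stimulated genes, and no gene of these lists was called after adjustment. Among single genes DESeq2 called Ankrd1, Csrp3, Sln, Myh4, Mstn, Fbxo32, Txnip and Nos1 in the control legs, with log2FC of 2.02, 1.06, 3.31, -1.59, -1.90, -0.91, -1.45 and -1.70. It called none of these 8 in the mimic legs, where the signs of the fit on 10 libraries were the same, and only for Nos1 was the unadjusted interaction p under 0.05, at 0.035.

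**Figure D5:**
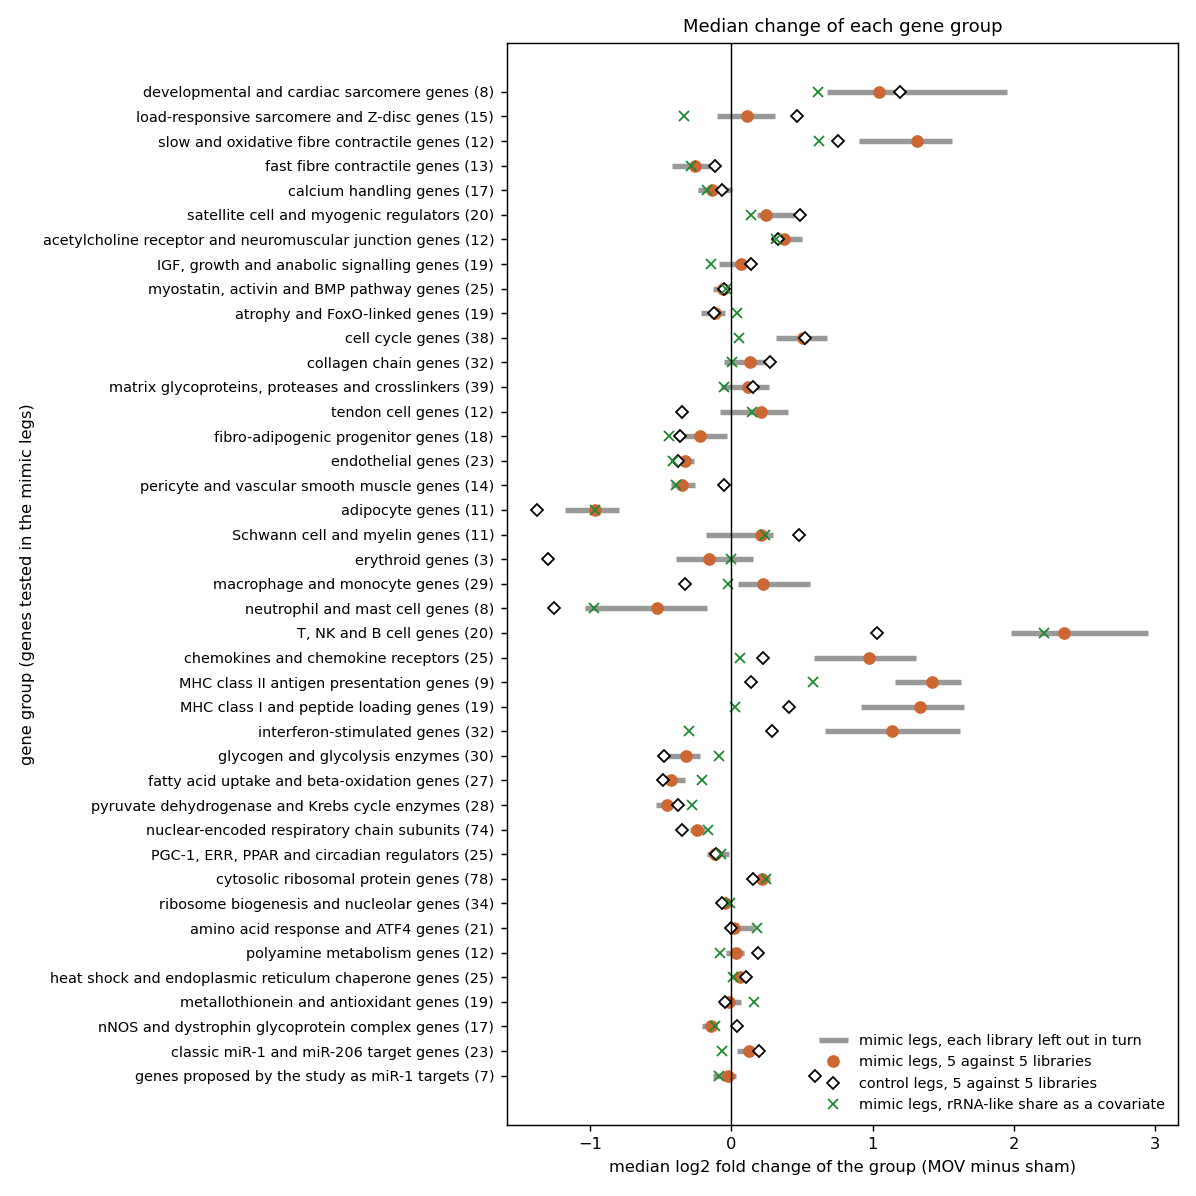
Median log2FC of MOV relative to sham for each gene list in the mimic legs (orange), with the range over fits that leave out 1 library (grey), in the control legs (diamonds) and in the mimic legs with the rRNA-like share as a covariate (green crosses). T, NK and B cell genes lie at 2.36, class II at 1.42 and Krebs cycle genes at -0.46 in the mimic legs.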

How the data were processed

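Libraries from plantaris muscle (NEBNext Ultra II) were sequenced in 20 samples, 5 in each of 4 groups, and the 10 mimic libraries were compared. Raw counts of reads per Ensembl gene, neither normalized nor filtered, were deposited by the authors for 54532 genes. Per their methods and processing notes, reads were checked with FastQC 0.11.9, trimmed by Trim Galore 0.6.10 through cutadapt 4.4, aligned to GRCm38 with HISAT2 2.0.5 and counted with featureCounts 1.5.0-p3, and the authors used DESeq2 1.34.0. Which annotation release and strand setting were used, and how reads with several alignments were treated, is not given in the sources used here, so antisense, overlapping and near-identical genes may share reads.

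From these counts, 27543 genes had at least 1 count in the mimic libraries and filterByExpr kept 14918. Groups were compared two-sided and without pairing by edgeR 4.0.16 (quasi-likelihood, TMM factors), with Benjamini-Hochberg adjustment over all genes tested and a threshold of 0.05. DEGs are genes past that threshold in the tool named. Per library values are TMM-scaled CPM, log2 CPM were taken with a prior count of 2, and SE are those of edgeR's log2FC. Counts of 0 were given a floor of 3 counts, which covers counting error only. Alternatives were DESeq2 1.42.0, voom with quality weights in limma 3.58.1, DESeq2 size factors, library totals, each library left out in turn, a fit of all 20 libraries, a block for equal replicate numbers, and filters of none or of 10 counts in total. DESeq2 without each library, the rRNA-like share as a covariate and libraries with a share under 0.1% only were added after seeing the data. A chi-square statistic per gene showed no pair of libraries of a group to be copies (lowest value 12.7, where 1 is sampling noise). In simulated counts for this comparison with 14264 genes, edgeR recovered 47% of changes of 1 on the log2 scale and 1% of changes of 0.5 with 2 false calls, and DESeq2 67% and 11% with 25.

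The comparison and the 41 gene lists were chosen with earlier results of these data known. Named genes were to be the 6 highest and 6 lowest DEGs that did not overlap, with a mean of at least 4 log2 CPM, a set of overload genes, called and up to 2 uncalled members of each list, and the 5 smallest interaction p. Since edgeR called none, the DEGs of DESeq2 stand in for the first, and other genes were chosen after their values were seen. Symbols were found for 30105 genes, and positions and promoters are RefSeq's for GRCm38.p6. Figures and tables were made with matplotlib 3.10.9, pandas 2.3.3 and numpy 2.4.6 in Python 3.11.15, and fits with R 4.3.3. Muscle weights, histology and qPCR were not analysed here, and a few genes and 1 promoter window are not reported here.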

Additional observations from a re-analysis of the deposited data

Results flagged for a closer look

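A library was marked where its gap to the nearest library, divided by the range of its group, was above the Dixon limit of 0.71. For 5 libraries with normally distributed values chance reaches this limit in about 1 of 20 groups, and CPM need not be so distributed. Of 204 groups (102 genes in sham mimic and in MOV mimic), 21 had such a library. Sham mimic 2 was far above the other sham libraries for 8 of them, mostly genes of developing or regenerating fibres, with Myh3 at 1033.4, Myh8 at 464.5, Myl4 at 140.4, Actc1 at 1051.2, Sln at 164, Pax7 at 10.1, Chrna1 at 52.4 and Nxn at 111.9 CPM. Sham mimic 3 was far above for Lck at 2.83, Ccl5 at 6.85 and Rps14 at 372.1 CPM, and sham mimic 5 for Gbp2 at 86.1 and Igtp at 892 CPM. Sham mimic 1 was far above for Flt1 at 58.0 and Acadvl at 184.2 CPM and far below for Sh3bgrl3 at 14.9, Mki67 at 1.43 and Runx3, a T cell transcription factor, at 0 CPM. In MOV mimic, Retsat was low in library 2 at 8.42, Cd36 was high in library 5 at 218.4 and Itm2a was high in library 3 at 425.5 CPM. The cause of these values was not tested.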

How the results depend on the processing

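Counts of DEGs in the mimic legs ranged widely. Against 0 in edgeR, DESeq2 gave 223 (126 higher, 97 lower), voom 2 (Slc7a6os and Igfn1, both higher), no filter 1 (Igfn1, higher) and all 20 libraries in the fit 3 (1 higher, 2 lower). It stayed 0 with at least 10 counts, DESeq2 size factors, library totals, the covariate and the low-share libraries. Leaving out 1 library gave 0 to 101 in edgeR (0 to 50 higher, 0 to 51 lower) and 54 to 1341 in DESeq2 (24 to 631 higher, 26 to 710 lower). The interaction gave 0, but 1 in DESeq2. In the control legs, 1 DEG in edgeR became 913 in DESeq2, 294 in voom, 0 with library totals, 388 without filter, 163 with at least 10 counts, 36 in the fit of 20 libraries and 0 to 426 without 1 library. The causes were not tested.

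With the replicate block, 0 genes were called in the mimic legs by edgeR, and 5 for the interaction by DESeq2. Equal numbers join different mice across surgeries, where the correlations of deviations were -0.17 to -0.03 in mimic and -0.30 to 0.084 in control legs. For legs within a surgery they were 0.012 to 0.66, all above 0 and 7 of 10 over 0.1, and not every library correlated best with its own number, so that a pairing of legs was not established.

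Of 102 genes followed over the alternatives, signs changed for uncalled ones only. With the covariate the log2FC were -0.18 for Cd68, -1.08 for Igtp, -0.14 for Irf8, -0.10 for Myh3, -0.42 for Ankrd1, -0.37 for Csrp3, -0.11 for Igf1, -0.11 for Myc, 0.10 for Fbxo32, -0.20 for H19, -0.016 for Col1a1, -0.13 for Col3a1 and -0.036 for Ypel2. With low-share libraries they were -0.68 for Igtp, -0.083 for Pvalb, -0.25 for Igf1, -0.062 for Myc, -0.21 for Col3a1, 0.038 for Itm2a, 0.11 for Nxn and -0.017 for Ypel2. Pvalb was at -0.028 without filter, -0.026 with at least 10 counts, -0.031 with the block and -0.0088 in the fit of 20 libraries. With library totals Trim63 was 0.041 and Nxn 0.090, with voom Cd68 was -0.10 and Col3a1 -0.022, and without filter Cd68 was -0.0075. Without 1 library the ranges were -0.18 to 0.27 for Cd68, -0.15 to 2.06 for Myh3, -0.13 to 0.12 for Pvalb, -0.33 to 0.044 for Trim63, -0.17 to 0.26 for Col3a1, -0.19 to 0.041 for Nxn and -0.026 to 0.22 for Ypel2.

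Medians of the interferon, macrophage, load-responsive, growth, atrophy, matrix, polyamine, antioxidant and classic target lists changed sign with the covariate. Those of the T, NK and B cell, class I, class II, chemokine, slow fibre, endothelial, pericyte, Krebs cycle, fatty acid, respiratory chain and ribosomal protein lists kept theirs in all 30 alternatives. Depth limits genes under about 1 CPM, such as the T cell genes in sham muscle.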

Other observations

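Some called genes outside the lists are given here as single values. They were chosen after their values were seen and lend no support to any list. Dnase1l3, a nuclease secreted by dendritic cells and macrophages, was at 0.176 to 1.02 CPM in sham mimic and 1.05 to 18.6 CPM in MOV mimic, with a log2FC of 3.90 (SE 0.86) and an adjusted p of 0.000285 in DESeq2. Tcf7, a transcription factor of T cells, was at 0.830 to 1.59 CPM in sham mimic and 2.23 to 9.79 CPM in MOV mimic, without overlap and with a log2FC of 2.39. Runx3 and Eomes, transcription factors of T and NK cells, had log2FC of 2.34, without overlap, and 2.92, with overlap, and all 3 were higher by DESeq2. Flt3, a receptor of dendritic cell precursors, had a log2FC of 2.22 in the mimic legs and 0.16 in the control legs, with an unadjusted interaction p of 0.0359 in edgeR.

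Among genes lower by DESeq2, Bmp6, a ligand of the BMP pathway made by endothelial cells, was at 8.99 to 15.6 CPM in sham mimic and 3.46 to 5.99 CPM in MOV mimic. Its log2FC was -1.19 (SE 0.23). Car14, a membrane carbonic anhydrase of muscle, was at 16.3 to 38.7 CPM in sham mimic and 4.27 to 15.5 CPM in MOV mimic, with a log2FC of -1.45. Myoc, which encodes myocilin, had a log2FC of -1.71 and overlapped between groups. Pm20d2, a peptidase of dipeptides, was at 6.75 to 13.2 CPM in sham mimic and 2.16 to 3.37 CPM in MOV mimic, with a log2FC of -1.75 (SE 0.26) and an adjusted p of 1.67e-06 in DESeq2. With the share of rRNA-like reads as a covariate the log2FC were 2.42 for Dnase1l3, 1.59 for Tcf7, -0.92 for Car14 and -0.61 for Myoc. In the control legs the log2FC were -1.16 for Bmp6, -1.76 for Car14, -1.89 for Myoc and -1.46 for Pm20d2.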
